A study of Saccharomyces cerevisiae with 51 samples.

Results

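The strains described here are the deletion mutants of the 4 *SIR* genes, *SIR1* (YKR101W), *SIR2* (YDL042C), *SIR3* (YLR442C), and *SIR4* (YDR227W), together with the deletion of YDL041W, a dubious reading frame that lies over *SIR2* on the opposite strand. They are 5 of the 6128 deletion mutants of *Saccharomyces cerevisiae* in a barcode-sequencing (Bar-Seq) screen. They were chosen by gene name, with earlier results of these data known. Removal of YDL041W takes out sequence that also belongs to *SIR2*. It is a strain of its own, with its own barcodes, that lacks part of the same locus.

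The screen used the *MAT***a** haploid yeast knockout (YKO) pool, in which most strains derive from BY4741 and a few from BY4740. The pool was transformed with the p*FUS1*-GFP-*LEU2* reporter, aimed at *BAR1*, whose replacement removes the protease that degrades α-factor. This holds for the sorted and the presort groups alike, and by the study's methods a small part of the pool lacked the reporter or carried it at another site. The groups are cells without detectable GFP sorted from vegetative cultures (Un Gfp-), the vegetative cultures before any sort (Un presort), cells without detectable GFP sorted from cultures given 10 nM α-factor for 2 h (In Gfp-), and those cultures before the sort (In presort), with 3 replicates each. Each mutant is a single library strain, identified by an UPTAG and a DNTAG barcode that were amplified and sequenced separately. Sorted cells were grown to saturation before DNA was extracted, so a sorted count measures what was left after that growth. It is not clear whether presort cells were grown again in the same way. If they were not, sorted and presort samples also differ by that growth.

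Sir2, Sir3, and Sir4 form the complex that keeps the silent mating-type loci *HML*α and *HMR***a** inactive. Sir2 is an NAD-dependent histone deacetylase, Sir3 and Sir4 are the structural proteins that bind the deacetylated histone tails, and Sir1 helps to establish silencing at the silencers. When **a** and α genes are active in one haploid cell, their products form the repressor normally found in diploids, which shuts off *FUS1* along with the rest of the haploid program and leaves the cell sterile. In a *sir1* mutant some cells are silenced and others are not, and each state is inherited for many divisions.

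In a sample, the UPTAG and DNTAG reads of a strain were added, and its level is given as a percent of all barcode reads of that sample. Samples held between 192483 reads (Un Gfp- replicate 3) and 13140634 reads (In Gfp- replicate 1), and the sorted pools of replicate 3 were the shallowest of their groups. Replicate 1 was sequenced on a HiSeq 2000 and the others on a HiSeq 2500. DNTAG reads made up between 19.7% and 88.8% of a sample. The lowest count of any of the 5 strains was 158 reads, where *sir2*Δ in In presort replicate 3 stood at 0.0289% (95% Wilson interval 0.0247 to 0.0337%). The amplification used no molecular identifiers, so such an interval covers counting error only.

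All 5 strains were more abundant in both Gfp- pools than in the cultures before sorting, with no overlap between groups. Higher shares without overlap were found for 3.72% of all mutants tested in the uninduced and 3.83% in the induced cultures. Lower shares without overlap were found for 94.2% and 94.4%. Together the 5 strains took 2.71, 2.54, and 3.18% of the reads in Un Gfp-, against 0.239, 0.217, and 0.166% in Un presort. The In Gfp- pools held 2.93, 2.75, and 2.26%, against 0.255, 0.209, and 0.264% in In presort. Every one of the 5 strains stood among the 48 most abundant mutants of each Gfp- sample. Before sorting, the places of *sir2*Δ, *sir3*Δ, *sir4*Δ, and *ydl041w*Δ ranged between 696 and 1857. Those of *sir1*Δ ranged between 73 and 237 before the sort and between 21 and 26 after it.

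**Figure D1:**
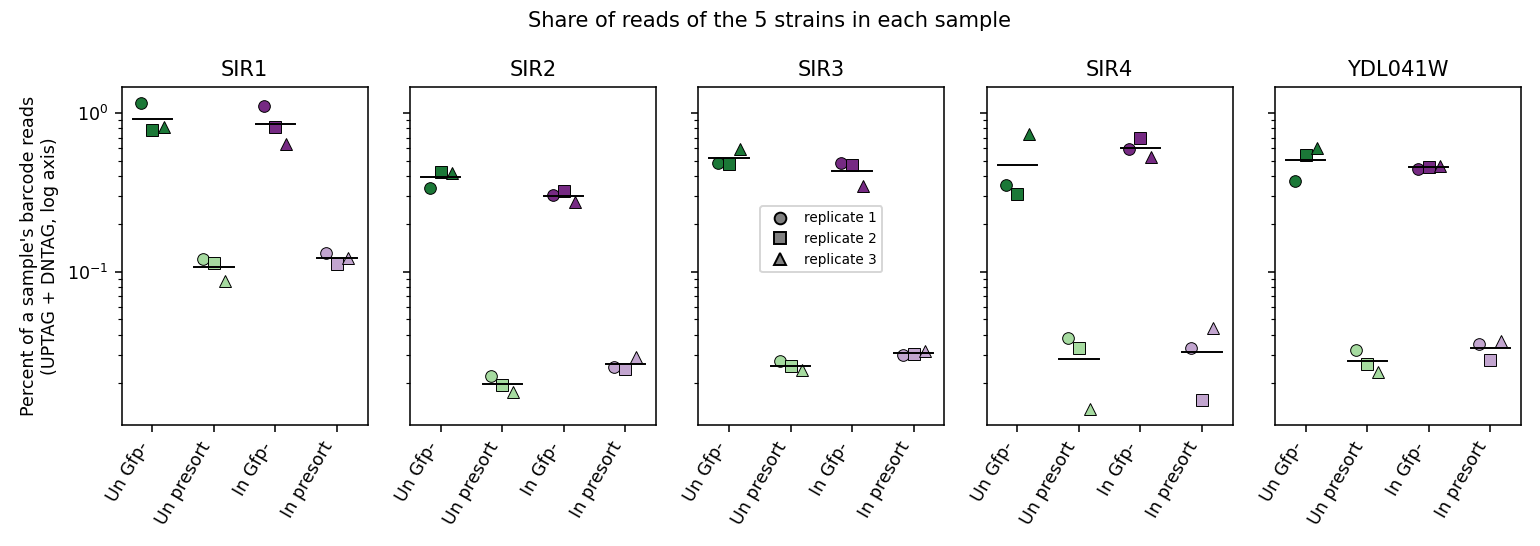
Percent of a sample's barcode reads (UPTAG plus DNTAG, log axis) of the 5 strains in Un Gfp-, Un presort, In Gfp-, and In presort. Symbols are single replicates and bars are group means. In every panel the 3 sorted samples lie above the 3 presort samples of the same condition, and *sir4*Δ has the widest spread between replicates on the log axis in every group except In Gfp-.

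The *sir1*Δ strain was the most abundant of the set before and after the sort. It made up 1.16, 0.786, and 0.821% of the reads in Un Gfp-, against 0.120, 0.113, and 0.0875% in Un presort. Its lowest sorted sample was 6.57-fold above its highest presort sample, and its mean share was 8.65-fold higher. In the induced cultures, *sir1*Δ stood at 1.11, 0.812, and 0.640% in In Gfp- and at 0.132, 0.112, and 0.122% in In presort, a 7.00-fold difference of the means. Replicate 1 was the highest sorted sample in both conditions.

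The *sir2*Δ strain, which lacks the deacetylase, had the lowest mean share of the set before and after the sort. Its shares were 0.337, 0.427, and 0.419% in Un Gfp-, against 0.0219, 0.0194, and 0.0175% in Un presort, 20.1-fold higher on average. With α-factor they were 0.303, 0.322, and 0.276% in In Gfp- and 0.0251, 0.0242, and 0.0289% in In presort, 11.5-fold higher. The sorted replicates lay close together, with SDs of 0.0495 percentage points in Un Gfp- and 0.0231 in In Gfp- (n = 3 each).

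The *sir3*Δ strain lacks the histone-binding subunit and followed *sir2*Δ closely. It held 0.483, 0.481, and 0.590% in Un Gfp-, against 0.0273, 0.0253, and 0.0239% in Un presort, 20.3-fold higher. In In Gfp- its shares were 0.483, 0.470, and 0.349%, against 0.0297, 0.0304, and 0.0318% in In presort, 14.2-fold higher. The presort values of *sir3*Δ varied least in the set, with SDs of 0.00106 percentage points in In presort and 0.00170 in Un presort.

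The *sir4*Δ strain lacks the scaffold that binds both Sir2 and Sir3. In Un Gfp- and in both presort groups its replicates differed most, by ratio of the highest to the lowest, while in In Gfp- those of *sir1*Δ and *sir3*Δ differed more. It made up 0.354, 0.308, and 0.743% in Un Gfp-, against 0.0380, 0.0328, and 0.0135% in Un presort. In In Gfp- it stood at 0.595, 0.693, and 0.531%, against 0.0331, 0.0155, and 0.0442% in In presort. The sorted and presort groups did not overlap in either condition, but the ratio between a sorted and a presort sample ranged from 8.10 to 55.0 in the uninduced cultures and from 12.0 to 44.6 in the induced ones. The mean shares were 16.7-fold and 19.6-fold higher after the sort.

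The *ydl041w*Δ strain lay near *sir2*Δ and *sir3*Δ. It held 0.373, 0.541, and 0.606% in Un Gfp-, against 0.0322, 0.0262, and 0.0232% in Un presort, 18.6-fold higher. With α-factor it stood at 0.444, 0.458, and 0.464% in In Gfp- and at 0.0349, 0.0275, and 0.0365% in In presort, 13.8-fold higher. Its 3 In Gfp- replicates had an SD of 0.0103 percentage points.

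The sort was aimed at mutants that lack reporter expression. In the study's single-strain tests, many mutants of its In Gfp- list were like wild type, so enrichment of a barcode does not show loss of GFP. Enrichment was tested over all mutants with a mean of at least 50 presort reads, with edgeR's quasi-likelihood test, TMM scaling, and Benjamini-Hochberg adjustment. All 5 strains passed and were higher in Un Gfp- than in Un presort, where 12.2% of the 3414 mutants tested were higher and 5.27% lower. The log2 fold changes were 9.30 ± 1.01 (SE) for *sir2*Δ, 9.28 ± 1.01 for *sir3*Δ, 9.10 ± 0.99 for *ydl041w*Δ, 8.72 ± 0.96 for *sir4*Δ, and 8.20 ± 1.14 for *sir1*Δ, with edgeR adjusted p between 0.000402 and 0.000838. By size of the change these were places 7, 9, 27, 51, and 62 of 3414. That no read share overlapped and every sorted share was higher held for 3.72% of the mutants tested. The calls were lost without replicate 1 or without replicate 2: without replicate 1, the 5 adjusted p values were between 0.0996 and 0.113, without replicate 2 between 0.0598 and 0.106, and no mutant of the pool passed in either, while without replicate 3 they were at most 4.09e-06. The fitted changes without replicate 1 (7.66 to 9.21) or 2 (8.23 to 9.10) stayed close to those of all replicates.

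In the induced cultures, all 5 strains were again higher in In Gfp- than in In presort, where 15.2% of the 3553 mutants tested were higher and 10.1% lower. The log2 fold changes were 10.03 ± 1.19 (SE) for *sir4*Δ, 9.61 ± 1.14 for *sir3*Δ, 9.47 ± 1.10 for *ydl041w*Δ, 9.25 ± 1.09 for *sir2*Δ, and 8.64 ± 1.14 for *sir1*Δ, with edgeR adjusted p of at most 2.12e-05. They took places 2, 13, 22, 49, and 73 of 3553. Non-overlapping, higher shares were found for 3.83% of the mutants tested. These calls were kept without any single replicate, with adjusted p of at most 0.0359.

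The size of these changes depended on the scaling. In the uninduced comparison 94.2% of the mutants, and in the induced one 94.4%, had a lower share of reads in every sorted sample than in any presort sample. With TMM the median log2 fold change of all mutants was -0.55 in the uninduced and -0.69 in the induced comparison, and with total counts it was -5.32 and -6.17. Scaled to total counts, the 5 strains were higher by 3.11 to 4.34 in Un Gfp- and by 2.81 to 4.29 in In Gfp- on the log2 scale, and all passed the test, with adjusted p of at most 0.000212 and 5.05e-05. Relative to the median mutant, the changes were 8.74 to 9.84 with TMM and 8.43 to 9.66 with total counts in the uninduced cultures. In the induced ones they were 9.33 to 10.73 and 8.98 to 10.47. With total counts, 116 mutants were higher and 3199 lower in Un Gfp-, where TMM gave 416 higher and 180 lower, and in In Gfp- the numbers were 119 and 3330, against 540 and 359 with TMM.

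**Figure D2:**
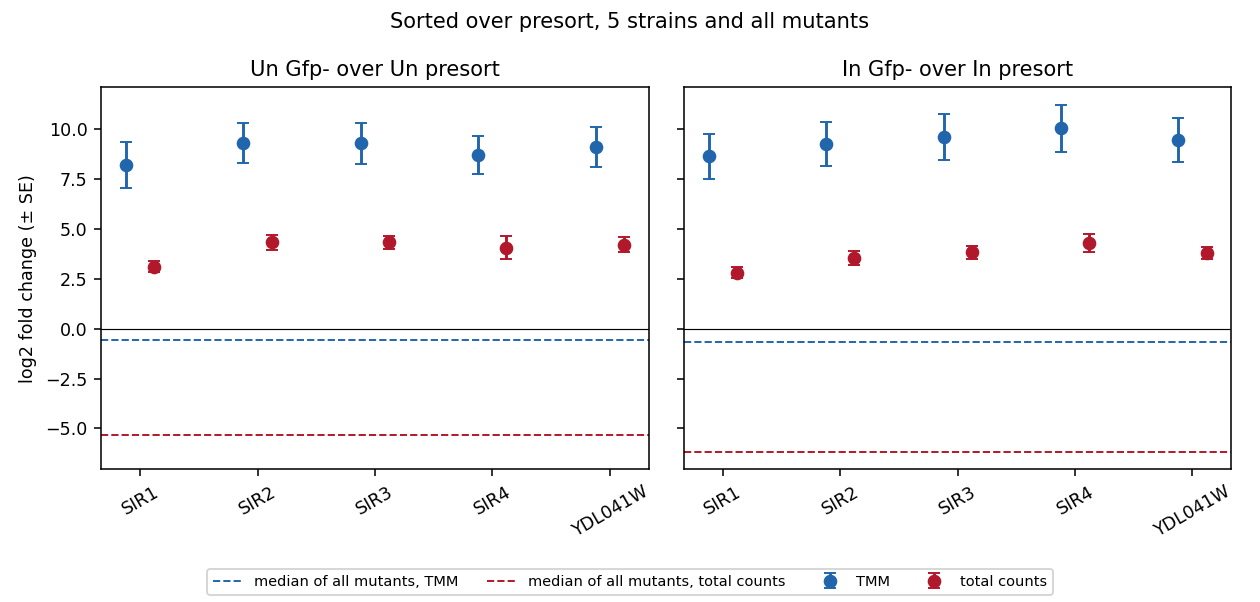
Log2 fold change, with its SE, of the 5 strains in Un Gfp- over Un presort and In Gfp- over In presort, scaled by TMM (blue) or to total counts (red). Dashed lines mark the median of all mutants tested, at -0.55 and -5.32 in the uninduced and at -0.69 and -6.17 in the induced comparison, and each strain lies at a similar distance above the line of its own scaling.

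Within the set, *sir1*Δ gained less than the others. The number of reads of one strain over that of another in the same sample does not depend on any scaling, so the 10 pairs were compared by the change of this ratio between sorted and presort samples, with an exact permutation test (two-sided, labels permuted within the uninduced and within the induced samples, 400 arrangements, smallest possible p 0.005). For *sir3*Δ the ratio to *sir1*Δ was 0.415, 0.612, and 0.718 in Un Gfp-, against 0.228, 0.223, and 0.274 in Un presort. It was 0.436, 0.579, and 0.546 in In Gfp-, against 0.225, 0.272, and 0.260 in In presort. No sorted sample overlapped with a presort sample. How many mutants outside the set show the same against *sir1*Δ was not computed. By edgeR's fold change, *sir1*Δ took place 62 uninduced and 73 induced, so mutants outside the set also gained more than it. All ratios to *sir1*Δ share the reads of that strain, so they are not separate findings.

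Relative to *sir1*Δ, *sir3*Δ was 2.20-fold higher after the sort than before it, *ydl041w*Δ 2.08-fold, and *sir2*Δ 1.98-fold (exact permutation p = 0.005 each, 0.0167 adjusted over the 10 pairs). The ratio of *sir4*Δ to *sir1*Δ was 2.47-fold higher (exact permutation p = 0.01, adjusted 0.025). It was 0.304, 0.392, and 0.906 in Un Gfp-, against 0.318, 0.290, and 0.154 in Un presort, so that Un Gfp- replicate 1 fell below Un presort replicate 1. It was 0.536, 0.852, and 0.830 in In Gfp-, against 0.251, 0.139, and 0.362 in In presort, with no overlap. From UPTAG reads alone that ratio was 2.11-fold higher, with an exact permutation p of 0.005. Leaving out a replicate brings the smallest possible p of a pair to 0.0556, so no pair could then pass. Without replicate 1, the sample set of the other instrument model, the ratios to *sir1*Δ were higher by 1.19 to 1.70 on the log2 scale, and without replicate 2 or 3 by 0.85 to 1.19.

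Among *sir2*Δ, *sir3*Δ, *sir4*Δ, and *ydl041w*Δ, none of the 6 pairs passed the exact permutation test (adjusted p between 0.28 and 0.6). The ratio of *sir2*Δ to *ydl041w*Δ, the 2 deletions at one locus, changed by -0.07 on the log2 scale (exact permutation p = 0.505), with log2 ratios between -0.75 and -0.14 in sorted and between -0.56 and -0.19 in presort samples. The other 5 pairs changed by between -0.32 and 0.24.

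**Figure D3:**
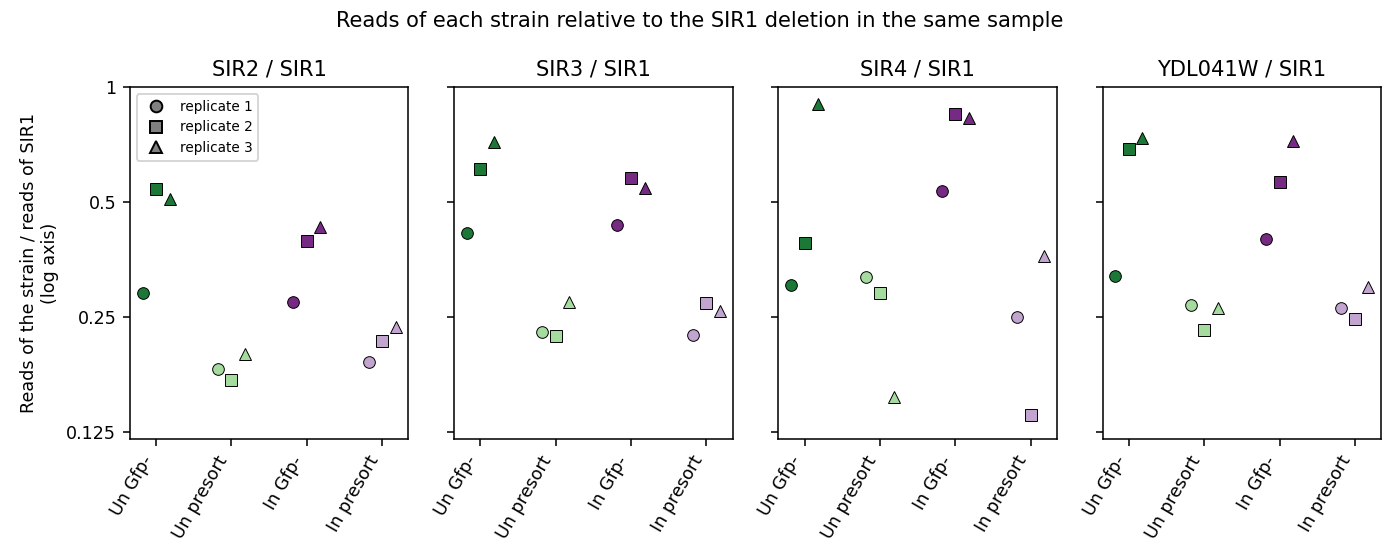
Reads of *sir2*Δ, *sir3*Δ, *sir4*Δ, and *ydl041w*Δ divided by the reads of *sir1*Δ in the same sample (log axis), in Un Gfp-, Un presort, In Gfp-, and In presort; symbols are replicates. For *sir2*Δ, *sir3*Δ, and *ydl041w*Δ all 6 sorted ratios exceed all 6 presort ratios, and for *sir4*Δ the groups overlap. Replicate 1 has the lowest ratio in each sorted group.

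The comparison of In presort with Un presort asks whether α-factor changed the abundance of a strain before any sort. None of the 5 strains passed, and 0.0% of the 3504 mutants did in either direction (edgeR; 20 were higher and 14 lower before adjustment, with p under 0.05, and DESeq2 called 0). The log2 differences were 0.41 ± 0.13 (SE) for *sir2*Δ, 0.28 ± 0.18 for *ydl041w*Δ, 0.26 ± 0.09 for *sir3*Δ, 0.20 ± 0.15 for *sir1*Δ, and 0.12 ± 0.52 for *sir4*Δ. All were positive, beside a median of -0.01 over all mutants. This was not particular to the set. The 7 tested mutants of the mating MAPK list, described below, had a median of 0.26, beside 0.26 for the 5 strains. Their values ran from 0.01 to 0.33. The medians of the silencing-related list and of the chromosomal neighbours were 0.07 and 0.06. For *sir2*Δ and *sir3*Δ every In presort share exceeded every Un presort share, a pattern found for 2.2% of the mutants. Their unadjusted p values were 0.0208 and 0.0302, a level that 0.571% of all mutants reached in this direction without adjustment, and the edgeR adjusted p was 0.9998. Without replicate 3 the differences were 0.26 for *sir2*Δ, 0.19 for *sir3*Δ, 0.10 for *ydl041w*Δ, 0.07 for *sir1*Δ, and -0.53 for *sir4*Δ. From DNTAG reads alone that of *sir4*Δ was 1.06. With both tags weighted equally, the differences were 0.42 for *sir2*Δ, 0.31 for *sir3*Δ, 0.28 for *ydl041w*Δ, 0.27 for *sir4*Δ, and 0.25 for *sir1*Δ. Their unadjusted edgeR p values were 0.0069, 0.0042, 0.035, 0.15, and 0.039, and none passed after adjustment. In that fit 40 of 3383 mutants were higher and 22 lower at an unadjusted p under 0.05.

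The enrichment in the induced and the uninduced Gfp- pools was compared by an interaction over the 12 samples. No strain of the set passed, and 0.0% of 3412 mutants did (edgeR; 184 were higher and 158 lower at an unadjusted p under 0.05, and DESeq2 called 23 higher and 64 lower). The induced minus uninduced enrichment was 1.35 ± 1.09 (SE) for *sir4*Δ, 0.49 ± 1.15 for *sir1*Δ, 0.41 ± 1.01 for *ydl041w*Δ, 0.38 ± 1.05 for *sir3*Δ, and 0.00 ± 1.05 for *sir2*Δ on the log2 scale, with edgeR adjusted p of at least 0.764. Each SE exceeded 1 on the log2 scale, and every difference but that of *sir4*Δ was smaller than its SE. Scaled to total counts, the difference turned to -0.31, -0.43, -0.52, and -0.81 for *sir1*Δ, *ydl041w*Δ, *sir3*Δ, and *sir2*Δ (none past the threshold). The median of all mutants moved too, from 0.06 with TMM to -0.67. Relative to that median, each strain kept its sign with TMM and total counts. The values were 0.43 and 0.37 for *sir1*Δ, 0.34 and 0.24 for *ydl041w*Δ, and 0.32 and 0.15 for *sir3*Δ. They were -0.06 and -0.13 for *sir2*Δ, and 1.29 and 0.91 for *sir4*Δ. For *sir4*Δ the difference itself became -0.22 from DNTAG reads alone.

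The UPTAG and the DNTAG of a strain are sequenced from the same DNA, so they give separate readings of its abundance. In all but *sir4*Δ they gave similar shares. The log2 ratio of the share of UPTAG reads to the share of DNTAG reads ranged from -0.24 to 0.37 over the 12 samples of *sir2*Δ, from 0.06 to 0.57 in *sir1*Δ, from 0.07 to 0.54 in *sir3*Δ, and from 0.03 to 0.66 in *ydl041w*Δ. With 1 read added to each count, the replicates of *sir2*Δ in Un Gfp- differed in this ratio by an SD of 0.05, which was smaller than in all but 0.227% of the 2641 mutants with a mean of at least 50 presort reads in each tag. The median SD of those mutants was 1.56 in that pool. There, 94.2% of the mutants tested had a lower share of reads in every sorted sample than in any presort sample. In Un presort the SD of *sir2*Δ was 0.28, larger than in 71.8% of those mutants, whose median SD was 0.18. For *sir2*Δ it was 0.06 in In Gfp- and 0.09 in In presort, larger than in 1.1% and 17.3%.

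The *sir4*Δ strain stood apart in its DNTAG. Its UPTAG shares were steady, at 0.913, 1.01, and 0.990% of UPTAG reads in Un Gfp-, against 0.0644, 0.0445, and 0.0459% in Un presort. Its DNTAG shares were 0.0958, 0.220, and 0.600% of DNTAG reads in Un Gfp-, against 0.00622, 0.00858, and 0.00533% in Un presort, where they rested on 156, 51, and 106 reads. The UPTAG share was thus between 5.19 and 10.3 times the DNTAG share before the sort and between 1.65 and 9.54 times after it.

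With α-factor, the UPTAG shares of *sir4*Δ were again steady, at 0.850, 0.824, and 0.700% in In Gfp-, against 0.0624, 0.0489, and 0.0613% in In presort. Its DNTAG shares were 0.428, 0.158, and 0.238% in In Gfp-, against 0.0147, 0.00677, and 0.0221% in In presort. Before the sort, its mean log2 ratio of UPTAG to DNTAG share, 2.94 uninduced and 2.13 induced, was above that of 98.8% and 98.5% of the 2641 mutants. The lowest presort values of the summed *sir4*Δ share, 0.0135% in Un and 0.0155% in In, were from the samples with 79.8% and 79.3% DNTAG reads. In Un Gfp-, replicates 1 and 3 had 68.4% and 63.3% DNTAG reads and summed *sir4*Δ shares of 0.354% and 0.743%. Whether the tag make-up of the samples accounts for the spread was not tested. When both tags were weighted equally, the log2 fold change of *sir4*Δ was 9.10 in Un Gfp- and 9.55 in In Gfp-, and the difference between the conditions was 0.43 in place of 1.35.

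**Figure D4:**
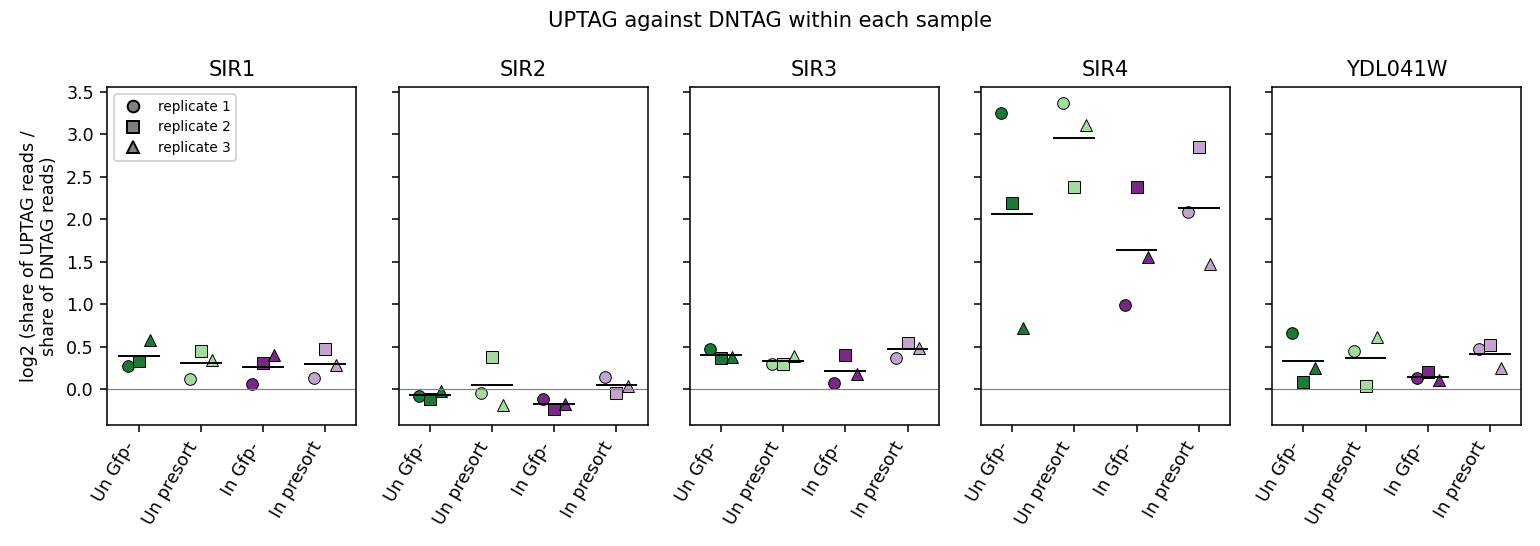
Log2 of a strain's share of UPTAG reads over its share of DNTAG reads in each sample of Un Gfp-, Un presort, In Gfp-, and In presort; symbols are replicates, bars are means, and 0 marks equal shares. In *sir1*Δ, *sir2*Δ, *sir3*Δ, and *ydl041w*Δ the points stay between -0.24 and 0.66, and in *sir4*Δ they spread between 0.72 and 3.37.

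Whether the tags gave the same enrichment was tested as a tag by sort term, with the sample as a block. No strain of the set passed in the uninduced samples, where UPTAG enrichment was higher than DNTAG enrichment in 0.157% and lower in 0.0393% of 2546 mutants. The UPTAG minus DNTAG enrichment lay between -0.51 and -0.32 on the log2 scale for the other 4 strains and was -1.30 ± 0.77 (SE) for *sir4*Δ (edgeR adjusted p = 0.747), beside a median of -0.48 over all mutants. In the induced samples it lay between -0.35 and 0.19 for all 5, and again none passed. There it was higher in 0.408% and lower in 8.11% of 2699 mutants, with a median of -1.35 over all mutants, which was -0.20 without replicate 1. From UPTAG reads alone, the 5 strains were higher by 7.93 or more (lowest for *sir1*Δ) in Un Gfp- and by 7.82 to 8.86 in In Gfp-. From DNTAG reads alone, they were higher by 8.45 to 9.93 and by 8.09 to 9.59. All passed the test in each. Over all mutants, UPTAG reads gave 363 higher of 2907 tested in Un Gfp- and 391 of 3015 in In Gfp-. DNTAG reads gave 388 of 2887 and 561 of 3161.

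The 10 genes listed for the mating MAPK cascade, which carries the pheromone signal to *FUS1*, were set beside the *SIR* strains. Of these, 7 had enough reads, and all 7 were called higher in both Gfp- pools with TMM. Over all mutants tested, TMM called 12.2% higher in the uninduced comparison and 15.2% in the induced one. With total counts, 6 of the 7 were called higher and 1 lower in Un Gfp-, and 4 higher and 1 lower in In Gfp-. Over all mutants, that scaling gave 116 higher and 3199 lower calls uninduced, and 119 and 3330 induced. In Un Gfp- the median log2 fold change was 9.10 for the *SIR* strains, 9.19 for this list, and -0.55 for all mutants. In In Gfp- these medians were 9.47, 9.26, and -0.69. The changes in Un Gfp- and In Gfp- were 9.39 and 9.43 for *STE7* (the MAPKK), 9.34 and 9.26 for *STE11* (the MAPKKK), 9.24 and 9.41 for *STE4* (the Gβ subunit), and 9.19 and 9.50 for *STE5* (the scaffold). They were lower for *STE20* (the upstream kinase, 7.52 and 7.08, with 0.96 and an adjusted p of 0.314 by edgeR in In Gfp- with total counts) and *STE50* (an adaptor of Ste11, 6.89 and 4.74). For *KSS1*, the MAPK of filamentous growth, TMM gave 3.88 and 3.50, but with total counts the direction was reversed (-1.23 and -2.48), as it was for *STE50* in In Gfp- (-1.03, not past the threshold).

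Other genes linked to silencing lay near the rest of the pool. The list of 33 such genes covers Sir2 relatives, histone acetyltransferases, chromatin assembly and telomere factors, and NAD metabolism, and 30 of them had a row in the table. With TMM, 0 of 21 tested were higher and 1 lower in Un Gfp- (*HST3*, a Sir2-related deacetylase, -1.32, adjusted p = 0.0482, edgeR), where 12.2% of all mutants tested were higher and 5.27% lower. Their median was -0.28, beside -0.55 for all mutants. In In Gfp-, 2 of 22 were higher and 0 lower, where 15.2% of all mutants tested were higher and 10.1% lower, and the median was -0.52, beside -0.69. These were *HIR2*, a subunit of the HIR histone chaperone complex (2.38, adjusted p = 0.0046, edgeR), and *RIF2*, a telomere protein (1.40, adjusted p = 0.0344), which with total counts were lower by -3.65 and -4.53. The mean share of *HIR2* was 0.000239% in In Gfp-, against 0.00357% in In presort. With total counts, all 21 and all 22 were lower, as were 3199 and 3330 mutants of the pool.

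The deletions of the genes next to the 4 *SIR* genes on their chromosomes stayed nearer to the pool. Of the 16 neighbours with a row, 9 had enough reads. Their median log2 fold change with TMM was 0.50 in Un Gfp- and 0.30 in In Gfp-, beside -0.55 and -0.69 for all mutants. With the uninduced cultures 1 of the 9 was called higher and with the induced ones 2 of the 9, near the shares over all mutants tested, 12.2% and 15.2%. *NFT1*, near *SIR1*, was called in both (3.56 and 3.68), and *GMC2*, near *SIR3*, in In Gfp- (1.92), but with total counts both were lower in both pools, *NFT1* by -1.48 and -2.08 and *GMC2* by -4.18 and -4.01. *NAT1*, which lies beside *SIR2* and encodes a subunit of an N-terminal acetyltransferase, had 0 reads in the 12 samples.

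**Figure D5:**
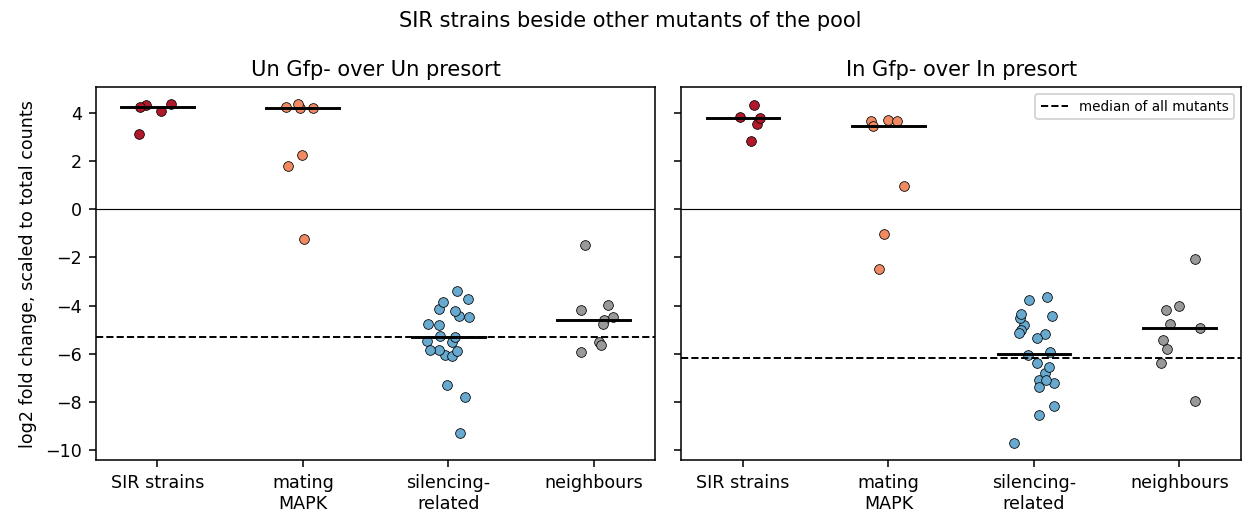
Log2 fold change scaled to total counts in Un Gfp- over Un presort and In Gfp- over In presort, for the 5 *SIR* strains, the mating MAPK list, the silencing-related list, and the chromosomal neighbours; each point is a mutant tested, bars are list medians, and the dashed line is the median of all mutants. The *SIR* strains lie between 2.81 and 4.34, and every silencing-related mutant and neighbour lies below 0.

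The mutants with a profile most like each *SIR* strain were found by Pearson's r of log2(CPM + 1), with CPM scaled by TMM, over the 12 samples, among 3411 other mutants tested in both conditions. For *sir2*Δ they were *sir3*Δ (r = 0.9996), *STE5* (0.9996), and *STE4* (0.9995), with *ydl041w*Δ in place 4. For *sir3*Δ they were *STE5*, *sir2*Δ, and *GPA1*, which encodes the Gα subunit. The study describes loss of *GPA1* as lethal in haploids and did not identify that mutant in its screen. The nearest to *ydl041w*Δ were *TOP3* (DNA topoisomerase III), *sir2*Δ, and *RPS12* (a ribosomal protein). For *RPS12* the study tested the library strain only and no newly made mutant.

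For *sir1*Δ the nearest were *CAF40* (a subunit of the Ccr4-Not complex, r = 0.9998), *HUB1* (a ubiquitin-like protein), and *TOF1* (a protein of the replication fork). The other strains of the set took places 43 (*sir3*Δ), 73 (*sir2*Δ), 91 (*ydl041w*Δ), and 124 (*sir4*Δ) in that order. For *sir4*Δ they were *PDR17* (a phosphatidylinositol transfer protein, r = 0.9964), *COA1* (of cytochrome oxidase assembly), and *TDH2* (glyceraldehyde-3-phosphate dehydrogenase), with *ydl041w*Δ in place 6. In the study's single-strain tests the *PDR17* library strain lacked GFP, but a newly made *PDR17* deletion was like wild type. Between 279 and 303 mutants reached an r of at least 0.9 with a strain of the set, while the median r of all mutants was between -0.51 and -0.49. All mutants share the 12 samples, their depth, and their tag make-up, so these correlations are given as a description.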

How the data were processed

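Barcode reads were counted in 24 libraries, the UPTAG and DNTAG of 3 replicates of each of 4 pools. The authors aligned reads with Bowtie2 to the known UPTAG and DNTAG barcodes and deposited raw counts per mutant without normalization. A further 24 columns could not each be matched to a single sample and were not used, nor were the ChIP and RNA peak files, which are other experiments. Names of 5651 of 6128 mutants came from a gene table of the R64 assembly; its coordinates served only to order genes.

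UPTAG and DNTAG counts of a replicate were summed. Mutants with a mean of at least 50 presort reads were tested with edgeR 4.0.16 in R 4.3.3 (quasi-likelihood test, TMM, Benjamini-Hochberg, adjusted p threshold 0.05), and DESeq2 1.42.0 was an alternative. An SE is the log2 fold change divided by the square root of F. Pairs of strains were compared on reads plus 1, with Python 3.11.15 and numpy 2.4.6. The scripts were tested on simulated data. Alternatives were other scalings, filters, each tag alone, a replicate block, and each replicate left out; weighting both tags equally was added after seeing the data. The strains and lists were chosen with earlier results of these data known. Named genes are the 5 strains, list genes called in both Gfp- pools with up to 4 others of the largest change, the 2 genes on each side of a *SIR* gene that have a row, and the 3 most similar mutants for each strain. *HST3* and *NAT1*, outside that rule or singled out within it, were named after their values were seen. By the study's methods the transformed library was stored as frozen aliquots, and an aliquot was thawed for growth. The methods describe no separate transformation for each replicate, and the labels name none, so p-values measure the spread between these samples.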

Additional observations from a re-analysis of the deposited data

How the results depend on the processing

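The direction of all 5 *SIR* strains in both Gfp- pools was kept in every alternative tried, and their calls in all but Un Gfp- without replicate 1 or 2, where 0 of 5 passed (5 without replicate 3). The cause of changes in the counts below was not tested.

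Among all mutants, leaving out a replicate gave 0 to 543 higher and 0 to 193 lower calls in Un Gfp- (416 and 180 with all), and 208 to 496 higher and 0 to 182 lower in In Gfp- (540 and 359). Total counts gave 116 higher and 3199 lower in Un Gfp-, and 119 and 3330 in In Gfp-. Lower calls in Un Gfp- were 401 with DESeq2 and 727 with tags weighted equally. In In Gfp- they were 633 with DESeq2 size factors, 685 with DESeq2, 205 with 50 reads in every presort replicate, 1598 from UPTAG reads, 593 from DNTAG reads, and 816 with tags weighted equally.

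The replicate block gave 98 lower in Un Gfp-, and 316 higher and 12 lower in In Gfp-, and changed no call of a *SIR* strain, whose log2 fold changes were 7.83 to 9.06 and 8.23 to 9.90. The numbers were not taken as pairs. Replicate 1 differs from the others in instrument model, and by the study's methods the induced and uninduced flasks of an experiment came from the same thawed stock, but the labels do not say that a number marks such an experiment, and the data gave no pairing throughout: the correlations of deviations between same-numbered sorted and presort samples were 0.239, -0.00197, and 0.290 uninduced and -0.0505, -0.0776, and 0.0599 induced, and those of In and Un presort 0.569, -0.620, and -0.656. In each sorted comparison 1 of 3 sorted samples, that of replicate 3, correlated best with its own number.

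The difference between conditions called 0 mutants, against 12 with total counts, 9 with DESeq2 size factors, 87 with DESeq2, 15 without the filter on low counts, 1 with 50 reads in every presort replicate, 179 from UPTAG reads, 11 from DNTAG reads, 82 with tags weighted equally, and 0 to 4 without a replicate. For single strains it was reversed, never past the threshold, with total counts (*sir1*Δ -0.31, *sir2*Δ -0.81, *sir3*Δ -0.52, *ydl041w*Δ -0.43), from DNTAG reads (*sir1*Δ -0.24, *sir2*Δ -0.67, *sir3*Δ -0.29, *sir4*Δ -0.22, *ydl041w*Δ -0.27), and from UPTAG reads (*sir2*Δ -0.088, *sir3*Δ -0.077). For *sir2*Δ it was also reversed without the filter (-0.019), with 50 reads in every presort replicate (-0.018), with the replicate block (-0.12), and without replicate 1 (-0.26 to 0.051 over the replicates left out). The presort difference of *sir4*Δ was -0.53 to 0.58 without a replicate, negative without replicate 3.

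The tag by sort term called 5 mutants uninduced, 2 with total counts, 3 with 10 presort reads in each tag, and 1 to 2 without a replicate. Induced, it called 230, 484 with total counts, and 4 to 1042 without a replicate. Uninduced signs turned with total counts (*sir1*Δ 0.14, *sir3*Δ 0.13, *ydl041w*Δ 0.018) and without a replicate, where the values ran from -0.70 to 0.27 for *sir1*Δ, -0.96 to 0.15 for *sir2*Δ, -0.59 to 0.16 for *sir3*Δ, and -0.59 to 0.013 for *ydl041w*Δ, positive without replicate 2. Induced, they ran from -0.40 to 0.49 for *sir1*Δ, -0.52 to 0.32 for *sir2*Δ, -0.50 to 0.29 for *sir3*Δ, -1.07 to 0.19 for *sir4*Δ, and -0.60 to 0.27 for *ydl041w*Δ, lowest without replicate 3 and highest without replicate 1.

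Of the 10 pairs, 4 passed, and 0 without any 1 replicate, where none can. The change of *sir3*Δ to *sir4*Δ was 0.0020 from UPTAG reads and -0.45 to 0.068 without a replicate, that of *sir2*Δ to *ydl041w*Δ -0.19 to 0.027, and that of *sir3*Δ to *ydl041w*Δ -0.13 to 0.19.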
